A study of Mus musculus with 27 samples.

Results

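The MHC class II presentation genes examined here were H2-Aa, H2-Ab1, H2-Eb1, H2-DMa, H2-DMb1, Cd74 and Ciita. They were chosen by name, and all 7 were found among the 41388 gene identifiers of the count tables and among the 15121 genes that passed the low-count filter. RNA had been sequenced from livers of ovariectomized female C57BL/6 mice, 120 days of age by the labels, that received TCDD or only its sesame oil vehicle. TCDD (2,3,7,8-tetrachlorodibenzo-p-dioxin) is a long-lived ligand of the aryl hydrocarbon receptor (AhR). There were 8 dose levels between 0.01 and 30 µg/kg (0.01 and 0.03, 0.1 and 0.3, 1 and 3, 10 and 30). All 9 groups were gavaged at intervals of 4 days over 92 days, although one label calls the dosing daily. Each group had 3 livers, which the series' design text calls biological replicates.

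MHC class II molecules are heterodimers of an α and a β chain that display peptides from ingested proteins to CD4+ T cells. The invariant chain, encoded by Cd74, fills the binding groove during transport, proteases such as cathepsin S trim it, and the DM heterodimer exchanges the remaining fragment for peptide. Transcription of the whole set depends on CIITA, a coactivator without a DNA-binding domain of its own that is recruited by RFX, CREB and NF-Y proteins on the X and Y boxes of class II promoters. In a resting liver class II is mainly a product of Kupffer cells, dendritic cells and B cells, and interferon-gamma can induce it in other cells through CIITA. In bulk tissue, fewer cells of a type and less RNA per cell cannot be told apart, and this holds for every value below.

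The library totals were 434011 counts in the second 0.3 µg/kg liver and 11050391 to 30873586 counts in the other 26 libraries. The names of the deposited tables carry index sequences: libraries from vehicle up to 0.1 µg/kg used one set, those from 0.3 up to 10 µg/kg another set, and the livers given 30 µg/kg the vehicle group's own 3 indices. Comparisons of 0.3 to 10 µg/kg with vehicle therefore cannot be told apart from a change of index set. Those of 1, 3 and 10 against 0.3 µg/kg stay within a set. Vehicle and 30 µg/kg livers share their indices, and libraries with the same index cannot be separated within a pool. A difference between sequencing pools therefore cannot be told apart from the dose in that comparison either. The 6 AhR target genes checked (among them Cyp1a1, Cyp1a2 and Tiparp) were all called higher than vehicle at 1, 3, 10 and 30 µg/kg. The first vehicle liver stood apart from the other vehicle livers in class II expression, and the first 1 µg/kg liver stood apart in leukocyte and Kupffer cell markers. Counts of members called against vehicle are given with and without the first vehicle liver. Counts of Kupffer cell and pan-leukocyte markers at 1 µg/kg are given with and without the first 1 µg/kg liver.

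Of the 7 genes, H2-Aa, H2-Eb1, H2-DMa and H2-DMb1 had a promoter window in the RefSeq table of GRCm38.p6, which runs from 250 bases before the transcription start to 50 after it. The stretches below are shown because H2-Aa, H2-Eb1 and H2-DMb1 carry the promoter layout that CIITA acts through. Capitals mark the core of the X box (GNAAC) and the Y box (ATTGG), and each line reads 5′ to 3′ on the gene's own strand. H2-Aa lies at chr17:34287842-34287929 on the minus strand, H2-Eb1 at chr17:34305751-34305837 and H2-DMb1 at chr17:34153072-34153159 on the plus strand.
H2-Aa: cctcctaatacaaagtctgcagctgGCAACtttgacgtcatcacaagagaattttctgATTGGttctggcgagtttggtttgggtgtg
H2-Eb1: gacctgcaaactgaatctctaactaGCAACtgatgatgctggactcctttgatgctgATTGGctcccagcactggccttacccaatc
H2-DMb1: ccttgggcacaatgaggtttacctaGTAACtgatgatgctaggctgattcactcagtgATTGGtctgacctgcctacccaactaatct

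The capitals were 28 bases apart in H2-Aa and H2-DMb1 and 27 apart in H2-Eb1. A GNAAC followed by 15 to 30 bases and an ATTGG on the same strand was present in 2.79% of 32851 promoter windows, and ATTGG alone in 37.4% of them. Both shares count windows with the motif on either strand, whereas the class II windows were searched for the arrangement on the gene's own strand only. This form of the motif was chosen after the sequences had been seen. A longer form, in which an A precedes GNAAC and NGATG follows it, was held by 0.298% of windows and was found in H2-Eb1 and H2-DMb1. H2-Aa held TGACG, the core of a CREB site present in 20.8% of windows, a few bases behind its X core. Neither of the 2 H2-DMa windows held the X and Y arrangement. Among the other class II genes the arrangement was also found for H2-Eb2, H2-Oa and H2-Ob and not for H2-DMb2.

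H2-Aa encodes the α chain of the I-A molecule. Scaled to library size by the TMM method, it stood at 123, 153 and 175 CPM, a count level scaled to library size, in the 3 livers given 10 µg/kg, at 155, 142 and 95.6 CPM in those given 30 µg/kg, and at 84.7, 29.0 and 33.4 CPM in vehicle livers. All 6 livers of these doses lay above the highest vehicle liver, and the first vehicle liver lay far above the other vehicle livers. H2-Aa exceeded vehicle 3.06-fold at 10 µg/kg (log2 fold change 1.62, SE 0.36, adjusted p = 0.00214) and 2.67-fold at 30 µg/kg (log2 1.42, SE 0.35, adjusted p = 0.00316). These and all following adjusted p-values come from edgeR's quasi-likelihood test with Benjamini-Hochberg adjustment over the 15121 genes, and the word called means an adjusted p below 0.05.

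H2-Ab1, the β chain of I-A, measured 96.3, 129 and 160 CPM in livers given 10 µg/kg, 133, 126 and 69.9 CPM in livers given 30 µg/kg, and 81.3, 25.4 and 24.8 CPM in vehicle livers. Here the third 30 µg/kg liver lay inside the vehicle range while the livers at 10 µg/kg were all above it. H2-Ab1 rose 2.92-fold (adjusted p = 0.0167) with 10 µg/kg and 2.50-fold (adjusted p = 0.0244) with 30 µg/kg. H2-Eb1, the β chain of I-E, had 75.9, 90.5 and 109 CPM in livers given 10 µg/kg, 103, 90.6 and 55.7 CPM in livers given 30 µg/kg, and 53.1, 17.6 and 17.7 CPM in vehicle livers. Both doses cleared the vehicle range, the third 30 µg/kg liver only narrowly. H2-Eb1 rose 3.11-fold (adjusted p = 0.0064) with 10 µg/kg and 2.82-fold (adjusted p = 0.00666) with 30 µg/kg. Mice of the C57BL/6 strain carry a defective gene for the partner α chain of I-E. That gene, annotated as H2-Ea-ps, had 0 counts in all 27 libraries, where 3 counts would correspond to 0.0972 CPM in the deepest library and 6.91 CPM in the shallowest (counting error only).

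H2-DMa and H2-DMb1 encode the α and β chains of DM, the exchange factor. H2-DMa had 12.7, 13.4 and 14.6 CPM in livers given 10 µg/kg, 11.7, 12.4 and 8.19 CPM in livers given 30 µg/kg, and 9.36, 3.40 and 2.69 CPM in vehicle livers. H2-DMb1 had 9.25, 9.88 and 10.8 CPM in livers given 10 µg/kg, 6.80, 9.33 and 7.92 CPM in livers given 30 µg/kg, and 6.12, 1.62 and 2.49 CPM in vehicle livers. Both genes were above every vehicle liver at 10 µg/kg, and at 30 µg/kg only H2-DMa overlapped, through the third liver of that dose. H2-DMa rose 2.61-fold (adjusted p = 0.00502) with 10 µg/kg and 2.08-fold (adjusted p = 0.018) with 30 µg/kg. H2-DMb1 rose 2.89-fold (adjusted p = 0.00238) with 10 µg/kg and 2.32-fold (adjusted p = 0.00796) with 30 µg/kg. H2-DMb1 has a near copy, H2-DMb2, so the split of reads between them is uncertain. H2-DMa shares 10.4% of its exonic bases with Brd2 on the other strand, and the strand setting of the counting is not given in the sources used here.

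Cd74, the invariant chain, was the most abundant of the 7. Its libraries held 325, 288 and 360 CPM in livers given 10 µg/kg, 255, 271 and 200 CPM in livers given 30 µg/kg, and 199, 57.5 and 57.5 CPM in vehicle livers. The lowest 30 µg/kg liver, at 199.6 CPM, was only just above the first vehicle liver, at 198.8 CPM. Cd74 rose 3.10-fold with 10 µg/kg (log2 1.63, SE 0.43, adjusted p = 0.00913) and 2.31-fold with 30 µg/kg (log2 1.21, SE 0.43, adjusted p = 0.0309).

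Ciita, the coactivator, was the least abundant member and had the largest fold change of the 7 against vehicle at 1, 3, 10 and 30 µg/kg. In the first index set its CPM was 2.16, 0.680 and 0.682 in vehicle livers, 0.886, 2.81 and 1.27 with 0.01 µg/kg, 1.04, 0.859 and 0.568 with 0.03 µg/kg, and 2.19, 1.46 and 1.65 with 0.1 µg/kg. In the second index set it was 1.03, 2.87 and 1.52 with 0.3 µg/kg, 3.39, 2.89 and 3.86 with 1 µg/kg, 3.10, 4.41 and 4.04 with 3 µg/kg, and 5.14, 3.94 and 7.76 with 10 µg/kg. The 30 µg/kg livers had 4.53, 4.84 and 5.37 CPM. Every liver from 1 µg/kg upward lay above the highest vehicle liver. Its rise over vehicle was 2.80-fold (adjusted p = 0.00874) with 1 µg/kg, 3.21-fold (adjusted p = 0.00574) with 3 µg/kg, 4.67-fold (adjusted p = 0.000144) with 10 µg/kg and 4.08-fold with 30 µg/kg (log2 2.03, SE 0.39, adjusted p = 0.000205). Within the second index set this order did not hold. At 1 against 0.3 µg/kg its log2 fold change was 1.35 (adjusted p = 0.081), the smallest of the 7. At 3 against 0.3 µg/kg it was 1.54 (adjusted p = 0.0921), and neither was called. Ciita shares 3.45% of its exonic bases with Dexi on the other strand.

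**Figure D1:**
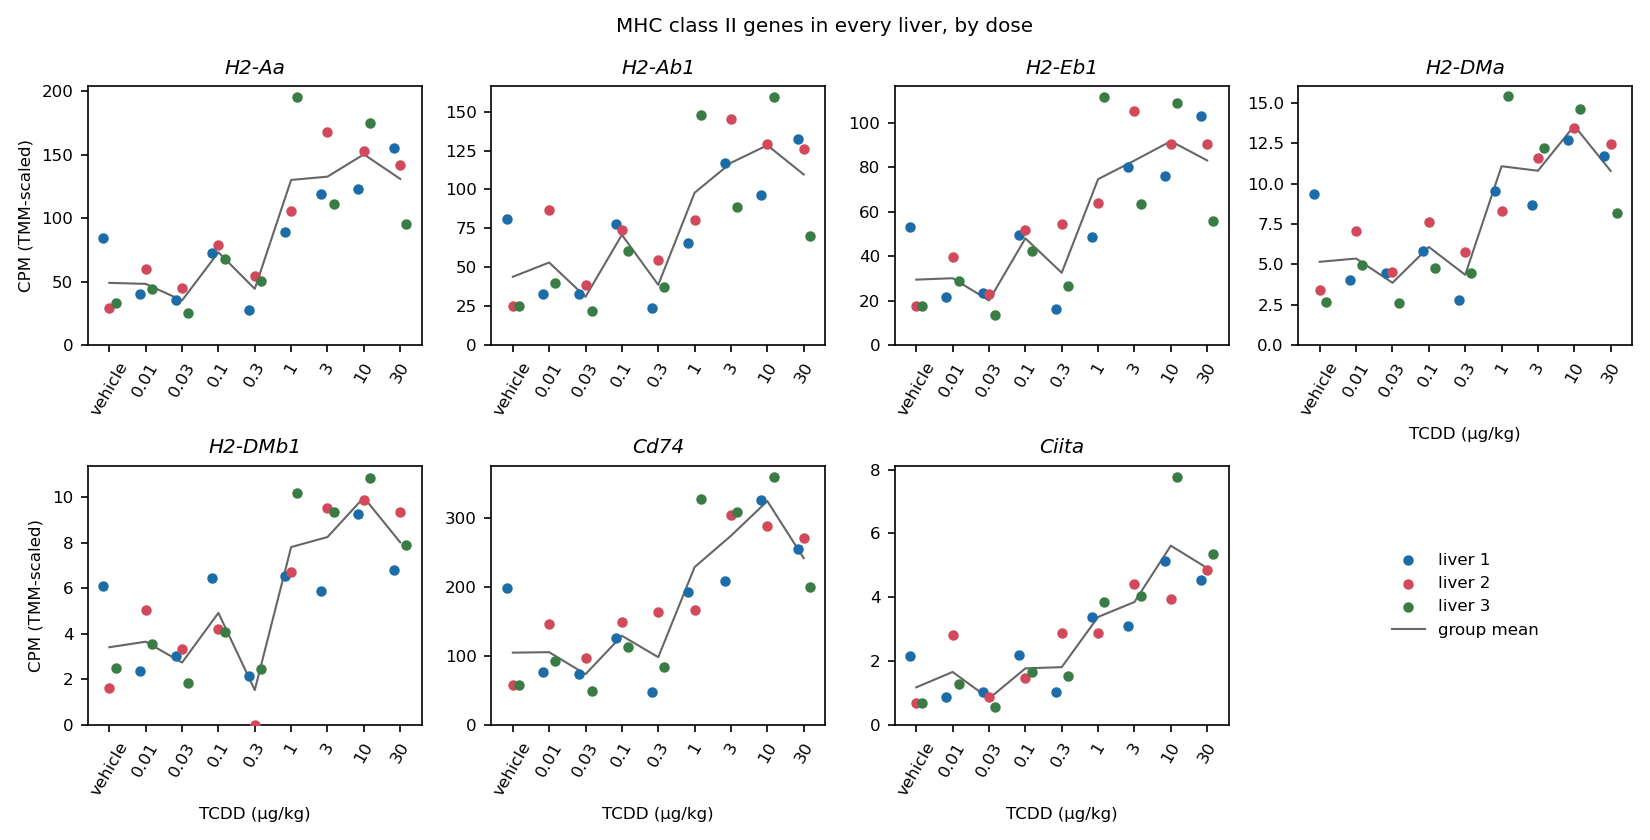
Level of each of the 7 genes in CPM (linear axis) in each liver, over vehicle and the 8 doses of TCDD in µg/kg. Each dot is 1 liver and the line joins the group means; in every panel the first vehicle liver lies far above the other vehicle livers, and at 10 µg/kg all livers lie above it.

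Placed in order of dose, the summed level of the 7 genes averaged 237 ± 172 CPM in vehicle livers, 247 ± 89.4 with 0.01 µg/kg, 167 ± 49.3 with 0.03, 334 ± 37.5 with 0.1, 221 ± 108 with 0.3, 554 ± 223 with 1, 630 ± 106 with 3, 724 ± 99.5 with 10 and 589 ± 128 with 30 µg/kg (SD, n = 3 each). The means fell into a low block from vehicle to 0.3 µg/kg and a high block from 1 µg/kg upward. Single livers overlapped between these blocks. The first vehicle liver, at 435.4 CPM, lay above the first and the second 1 µg/kg liver, at 414.6 and 435.2 CPM. For H2-Ab1 and H2-Eb1 the livers at 1 µg/kg also overlapped those at 0.1 µg/kg. The highest mean of each of the 7 genes was at 10 µg/kg, and the lowest was at 0.03 µg/kg except for H2-DMb1, whose lowest, at 0.3 µg/kg, includes a 0 in the shallow library. With plain library-size scaling the H2-Eb1 mean was higher at 30 than at 10 µg/kg, at 106 against 104 CPM. Within each block, groups next to each other in the order of their means overlapped between livers for H2-Aa, H2-Ab1, H2-Eb1, H2-DMa, H2-DMb1 and Cd74, and for Ciita the livers at 30 µg/kg lay just above those at 3 µg/kg.

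At each dose up to 0.3 µg/kg (0.01, 0.03, 0.1 and 0.3) edgeR and DESeq2 called 0 of the 7 genes against vehicle, and no member reached an unadjusted p below 0.05. In the same order of doses, edgeR called 0%, 0.0397%, 0.192% and 1.18% of all genes tested. The members' median log2 fold changes were 0.04, -0.51, 0.56 and -0.28. The signs at these doses depended on single vehicle livers. All 7 estimates were below 0 at 0.03 µg/kg, whereas without the first vehicle liver all 7 were above 0 (0.18 to 0.39). At 0.1 µg/kg all 7 were above 0, and without the second or without the third vehicle liver H2-DMa and Cd74 were just below 0.

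At 1 µg/kg 5 of the 7 genes rose, against a background of 11.1% of all genes called higher. H2-Ab1 (log2 1.16, SE 0.45, adjusted p = 0.074) and Cd74 (log2 1.13, SE 0.43, adjusted p = 0.0685) missed the threshold. At 3 µg/kg 6 rose, where 5.17% of all genes were called higher, and H2-DMa missed it (log2 1.06, SE 0.35, adjusted p = 0.0531). All 7 rose at 10 µg/kg, where 11.3% of all genes were called higher, and all 7 at 30 µg/kg, where the share was 18.0%. DESeq2 called 5, 7, 7 and 7 of the members at 1, 3, 10 and 30 µg/kg. Their median log2 fold changes were 1.17, 1.41, 1.62 and 1.32 in that order, while the medians of all genes were -0.0006, -0.034, -0.029 and -0.012. A different scaling (RLE factors) moved the median of all genes at 30 µg/kg to 0.10 and the split of called genes to 3345 higher and 2299 lower, against 2720 higher and 2940 lower with TMM, and all 7 members were called higher with both.

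The livers of 1 dose were all above the highest vehicle liver for 3, 5, 7 and 5 of the 7 genes at 1, 3, 10 and 30 µg/kg. The shares of all genes with this pattern were 16.9%, 16.1%, 20.7% and 23.9% in the same order.

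**Figure D2:**
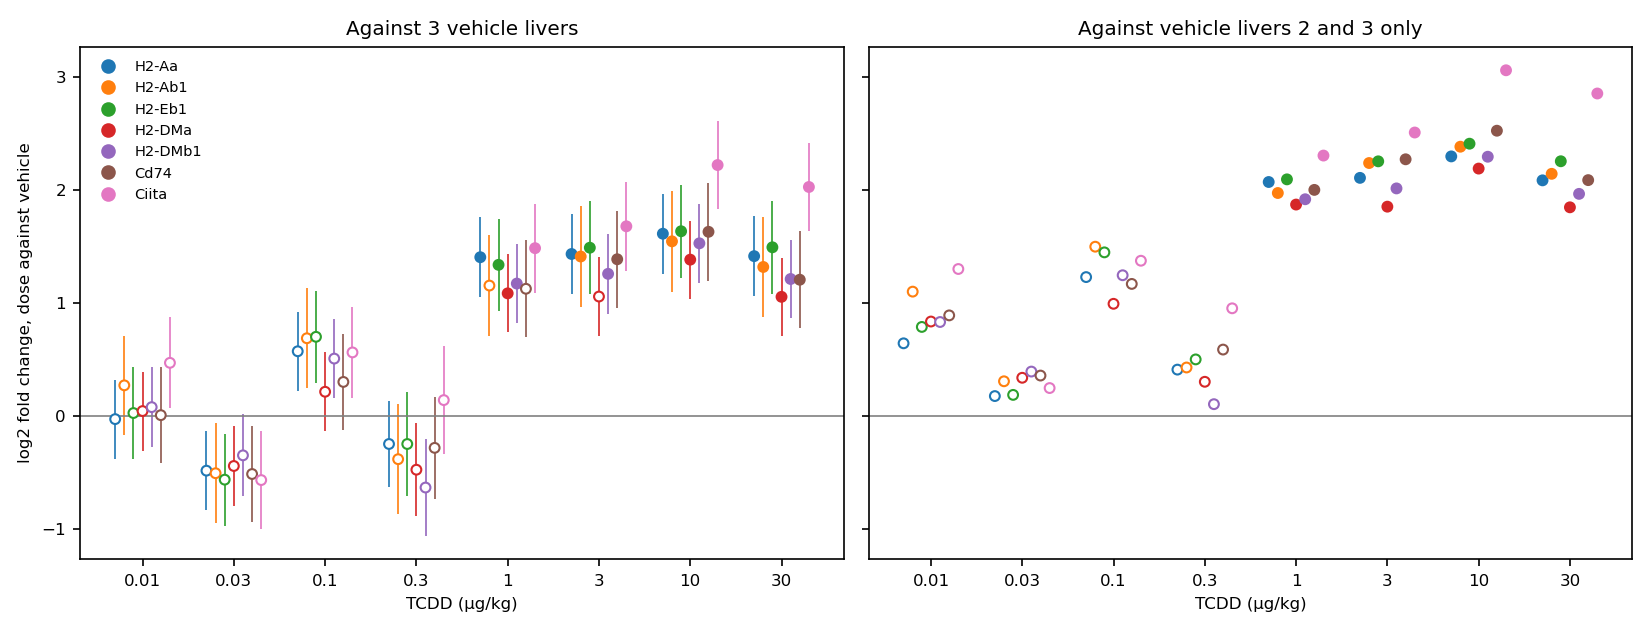
Log2 fold change against vehicle of the 7 genes at each dose of TCDD (µg/kg), from the fit to all 27 libraries (left; bars are SE, filled symbols passed an adjusted p below 0.05) and against vehicle livers 2 and 3 only (right; symbols filled in the same way, no bars). On the left the estimates lie on both sides of 0 up to 0.3 µg/kg and between 1.06 and 2.22 from 1 µg/kg upward. On the right every estimate is higher, which follows from leaving out the highest vehicle liver. The same calls plus those missed at 1 and 3 µg/kg are filled there.

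Within the second index set the rise from the low to the high block was seen without any vehicle liver. Against 0.3 µg/kg, all 7 genes were higher at 10 µg/kg, with log2 fold changes of 1.86 to 2.16 and a median of 1.91, where 6.96% of all genes were called higher. H2-DMb1 was highest with 2.16 (SE 0.43, adjusted p = 0.00127) and Ciita followed with 2.08 (SE 0.46, adjusted p = 0.00355). At 1 against 0.3 µg/kg 4 of the 7 were called (H2-Aa, H2-Eb1, H2-DMa and H2-DMb1; 5.10% of all genes), and at 3 against 0.3 µg/kg 2 were called (H2-Aa and H2-DMb1; 1.21% of all genes). In both comparisons each of the 7 reached an unadjusted p below 0.05; DESeq2 called 4 and 5. These counts depended on single livers: without the first 0.3 µg/kg liver, 0 were called at 1, 0 at 3 and 2 at 10 µg/kg, and without the shallow second one 5, 4 and 7 were. Without the third 0.3 µg/kg liver the count was 2 at 1 and 1 at 3 µg/kg, and without the first or the third 1 µg/kg liver it was 2 and 1 at 1 µg/kg. Leaving out the second or the third 3 µg/kg liver gave 0 and 1 at 3 µg/kg.

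The trend with the rank of the dose (vehicle as 0, 30 µg/kg as 8) was positive for all 7 genes, at 0.20 to 0.31 log2 units per step (adjusted p between 7.02e-07 and 0.00034), where 23.3% of all genes were called with a rising trend. Ciita had the steepest slope with 0.31 (SE 0.042) and H2-DMa the shallowest with 0.20 (SE 0.038). All 7 stayed called in each of the 27 fits that left out 1 library. Between 30 and 10 µg/kg, edgeR called none of the 7 and 3.20% of all genes; no member reached an unadjusted p below 0.05 and DESeq2 called 0. Their log2 fold changes at 30 against 10 µg/kg ran from -0.42 for Cd74 to -0.14 for H2-Eb1, with adjusted p between 0.611 and 0.877, so a difference between these doses was not detectable at this spread.

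The first vehicle liver held 435 CPM of the 7 genes together, against 135 and 139 CPM in the second and the third. Each of the 7 was 2.72-fold to 3.46-fold above the mean of the other vehicle livers there. The same ratio was 1.76 for the summed levels of the other class II genes, 1.62 for B cell markers, 1.57 for costimulation genes, 1.46 for T cell markers, 1.38 for Kupffer cell markers, 1.28 for pan-leukocyte markers, 1.15 for dendritic cell markers, 1.14 for class I genes and 0.616 for hepatocyte markers. Without this liver 7 of the 7 genes were called at 1, 3, 10 and 30 µg/kg, with adjusted p of at most 0.00447. Their median log2 fold changes were 2.00, 2.24, 2.39 and 2.09. Of the 15494 genes tested in these fits, 1389, 667, 1552 and 2486 were called higher at the same doses. The liver left out was the highest vehicle liver in class II, so higher estimates follow from leaving it out and are not further evidence. In the same fits 0 of the 7 genes were called from 0.01 to 0.3 µg/kg. The largest estimates there were at 0.1 µg/kg, with a median of 1.25 and adjusted p of 0.249 to 0.53. Without the second vehicle liver 0, 1, 5 and 3 of the 7 genes were called at 1, 3, 10 and 30 µg/kg, and without the third 0, 0, 5 and 3 were. The count at 1 µg/kg was 1 without the third liver of that dose, at 3 µg/kg it was 1 without the second and 3 without the third liver of that dose, and at 30 µg/kg it was 4 without the first or without the second liver of that dose.

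The members' levels varied together between livers. Over the 26 deeper libraries, the Pearson correlation of log2 CPM between pairs of members ran from 0.915 (H2-Ab1 and Ciita) to 0.993 (H2-Aa and H2-Eb1), with a median of 0.952 over 21 pairs. After the group means were taken out it ran from 0.692 to 0.974, with a median of 0.863. Points of such a correlation share the library, its scaling and its depth, so these are descriptions only.

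Per kilobase of merged exons, Cd74 stood 3.50 ± 0.694 times as high as H2-Ab1 over these libraries, H2-Eb1 0.924 ± 0.0929 times and H2-Aa 0.787 ± 0.101 times (SD, n = 26). The ratio of H2-DMb1 to H2-DMa per kilobase was 1.496 ± 0.279. Ciita per kilobase amounted to 0.00367 ± 0.000922 of Cd74 at 30 µg/kg and 0.003 ± 0.000718 at 10 µg/kg, against 0.00203 ± 0.0000977 in vehicle livers (SD, n = 3 each). The livers at 10 and at 30 µg/kg all lay above the vehicle livers in this ratio. So did those at 3 µg/kg (0.00249 ± 0.000163) and at 0.3 µg/kg (0.00339 ± 0.000417, the shallow library with its 1 count of Ciita included). At 0.3 µg/kg 0 members were called against vehicle.

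Genes with the most similar course were sought by the Pearson correlation of their log2 CPM with the mean z-score of the 7 members over the 26 libraries. Itgb7, an integrin β chain of leukocytes, came first with 0.947, followed by the cholesterol transporter gene Abcg1 with 0.912 and AU020206 with 0.906. Next came the interferon-inducible GTPase genes Gbp4 (0.904), Gbp2b (0.901) and Gbp2 (0.893), Tifab (0.903), the leukocyte surface receptor gene Slamf8 (0.900), Irf8 (0.894) and Fxyd5 (0.890). The order depended on the measure and on the shallow library. By Spearman correlation Abcg1 ranked 73 and Gbp2 84, and over all 27 libraries AU020206 ranked 1083 and Gbp2 2091. After the group means were taken out, the correlations of these 10 genes ran from 0.568 (Fxyd5) to 0.881 (Gbp2). For Ciita alone the 5 closest were Abcg1 (0.950), Itgb7 (0.945) and the members H2-DMb1 (0.944), Cd74 (0.940) and H2-DMa (0.928).

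The other class II genes with enough counts, H2-Eb2, H2-DMb2, H2-Oa and H2-Ob, were all 4 called higher at 30 µg/kg, with a median log2 fold change of 1.61. Over all genes tested, 11.1%, 5.17%, 11.3% and 18.0% were called higher at 1, 3, 10 and 30 µg/kg. H2-Oa and H2-Ob encode the chains of DO, an inhibitor of DM that is expressed mainly in B cells. At 10 µg/kg 3 of the 4 were called, and at 1 and 3 µg/kg edgeR and DESeq2 called 0, with 2 and 1 genes at an unadjusted p below 0.05. DESeq2 called 3 of the 4 at 30 and 2 at 10 µg/kg, and edgeR without the first vehicle liver also called 3 and 2. H2-Ob had 5.29, 5.26 and 3.83 CPM at 30 µg/kg and 2.35, 1.10 and 1.16 CPM in vehicle livers, and all livers at 30 µg/kg lay above the vehicle livers. Its log2 fold change was 1.62 (SE 0.41, adjusted p = 0.00264). H2-Eb2, a second β chain gene, measured 1.39, 0.730 and 0.851 CPM at 30 µg/kg and 0.149, 0.105 and 0.161 CPM in vehicle livers (log2 2.77, SE 0.56, adjusted p = 0.000392). These vehicle values were close to the 0.0972 CPM of 3 counts in the deepest library, so the size of this fold change rests on few counts. H2-DMb2 rose by 1.59 (SE 0.38, adjusted p = 0.0016) and H2-Oa by 1.34 (SE 0.52, adjusted p = 0.044) on the log2 scale. H2-Oa overlaps BC051537 on the other strand over 22.8% of its exonic bases.

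Of the 14 factors and coactivators that act at class II promoters, 5 rose and 2 fell at 30 µg/kg, where 18.0% of all genes were called higher and 19.4% lower, with a median log2 fold change of -0.19. The risers were Spib (2.02), Prdm1 (1.63), Irf4 (1.47), Irf8 (1.27) and Creb1 (0.70). Spib, Irf4 and Irf8 are lymphoid and myeloid transcription factors, CREB1 is one of the proteins that bind the X box, and PRDM1 is a repressor known to silence Ciita in plasma cells. Rfx5 (-0.49, adjusted p = 0.0392) and Rfxank (-1.22, adjusted p = 5.48e-06) fell. With RLE factors and with DESeq2, 5 of the 14 were called higher and only 1 lower. The remaining RFX subunit Rfxap (-0.06), the NF-Y subunits Nfya (-0.05), Nfyb (-0.38) and Nfyc (-0.33) and the acetyltransferase genes Kat2b (-0.33), Crebbp (-0.32) and Ep300 (-0.39) did not pass.

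Rfxank encodes the ankyrin-repeat subunit of RFX, and RFX is required for class II transcription. It had 13.1, 14.4 and 18.7 CPM at 30 µg/kg against 39.2, 32.4 and 35.6 CPM in vehicle livers, and all livers at 30 µg/kg lay below the vehicle livers. Across the doses its log2 fold change against vehicle was -0.02 with 0.01 µg/kg, -0.68 with 0.03 (adjusted p = 0.551), -0.95 with 0.1 (adjusted p = 0.00689), -1.35 with 0.3, -1.68 with 1, -1.52 with 3, -1.45 with 10 and -1.22 with 30 µg/kg. It was thus called lower at 0.1 and 0.3 µg/kg, where 0 of the 7 class II genes were called. Against 0.3 µg/kg it was -0.34 at 1, -0.18 at 3 and -0.10 at 10 µg/kg, none of them called. Rfxank shares 33.8% of its exonic bases with Nr2c2ap on the other strand, so its counts are uncertain to that extent. Irf8 had 19.9, 17.8 and 13.9 CPM at 30 µg/kg and 8.80, 5.86 and 6.62 CPM in vehicle livers, with no overlap. It was called higher at 1 (log2 1.402), 3 (0.99), 10 (1.38) and 30 µg/kg (1.27, SE 0.26, adjusted p = 0.000487).

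The 10 genes of peptide loading had 5 called higher and 2 lower at 30 µg/kg. At this dose 18.0% of all genes were called higher and 19.4% lower, so the share that fell was near that of all genes. Cathepsin S, the protease that trims the invariant chain in antigen-presenting cells, rose (Ctss, log2 1.46, SE 0.31, adjusted p = 0.000789), with 144, 78.9 and 102 CPM at 30 µg/kg and 52.9, 33.1 and 31.9 CPM in vehicle livers. Cathepsin L, which does the same in thymic epithelium, fell (Ctsl, log2 -1.32, SE 0.17, adjusted p = 1.27e-06). March1, a ubiquitin ligase that removes class II from the cell surface, rose by 1.67 and the late-endosomal tetraspanin gene Cd63 by 2.68. Ctsb (-0.20) and Psap (0.24) did not pass. Of 6 costimulation genes 4 rose at 30 µg/kg, against 18.0% of all genes (Cd40 1.68, Cd83 1.28, Cd274 1.18 and Icosl 0.94), while Cd86 (0.58) and Cd80 (1.10) did not pass.

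Interferon-gamma is the classic inducer of Ciita, so its other targets were examined as well. Of 12 target genes measured, edgeR called 0 higher and 6 lower at 30 µg/kg, with a median log2 fold change of -0.55, where 19.4% of all genes were called lower. The largest falls were Tgtp1 (-1.59), Cxcl9 (-1.17), Irgm2 (-1.10) and Irgm1 (-0.96), and Iigp1 (-0.27) and Nlrc5 (-0.02) did not pass. At an unadjusted p below 0.05 the counts were 1 higher and 6 lower, DESeq2 called 1 higher and 5 lower, and without the first vehicle liver the counts were 2 and 2. At 10 µg/kg edgeR and DESeq2 called 4 of the 12 higher and 0 lower (1 lower at an unadjusted p below 0.05), with a median of 0.30. There edgeR called 11.3% of all genes higher. Between 30 and 10 µg/kg 4 of the 12 were called lower, against 0 of the 7 class II members and 3.20% of all genes called in either direction. Of 7 signalling genes tested, edgeR called 2 higher and 1 lower at 30 µg/kg, where 18.0% of all genes were called higher and 19.4% lower. DESeq2 called 1 higher and 0 lower. Socs1 (1.60) and Jak2 (0.56) were the risers with edgeR, while Jak1 (-0.18) and Irf1 (-0.01) did not pass. The signalling gene called lower is not named here. Ifng itself had too few counts to be tested, with group means of at most 0.145 CPM.

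The class I pathway presents peptides made inside the cell. Of 15 class I genes edgeR called 0 higher and 9 lower at 30 µg/kg, where 19.4% of all genes were called lower. These were also the counts at an unadjusted p below 0.05, and the median log2 fold change was -0.65. B2m, the light chain of every class I molecule and picked here after its values were seen, had 1330, 1632 and 1216 CPM at 30 µg/kg against 2718, 2366 and 2531 CPM in vehicle livers, and it fell by 0.87 on the log2 scale (SE 0.16, adjusted p = 0.000132). H2-Q7 (-1.24), Psmb9 (-1.05), H2-T23 (-0.95) and Psmb8 (-0.93) had the largest falls, and H2-D1 (0.14) and Tapbp (-0.19) did not pass. DESeq2 called 0 higher and 8 lower, RLE scaling left 7 lower, and without the first vehicle liver 5 were called lower and 0 higher. At 10 µg/kg 0 of the 15 were called by edgeR or by DESeq2, with a median of -0.08, and at an unadjusted p below 0.05 1 was higher and 2 were lower. Over all 15121 genes edgeR called 1713 higher and 1689 lower at that dose. The summed class II members amounted to 0.203, 0.171 and 0.157 of the summed class I genes at 30 µg/kg and 0.175, 0.145 and 0.178 of them at 10 µg/kg, against 0.0782, 0.0287 and 0.0275 in vehicle livers. The treated livers all lay above the vehicle livers, of which the first was again far above the others.

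**Figure D3:**
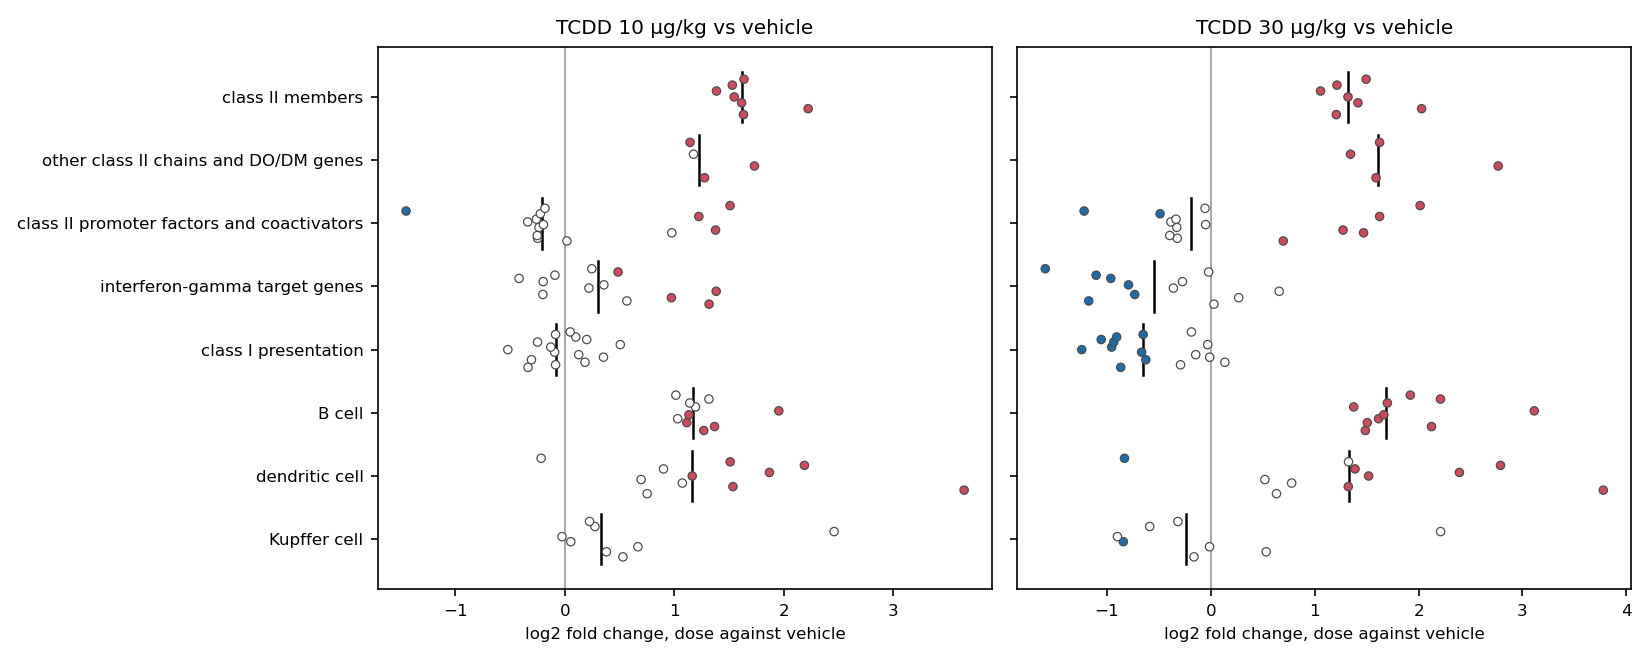
Log2 fold change against vehicle at 10 and 30 µg/kg of every tested gene in the lists of class II members, other class II genes, class II promoter factors, interferon-gamma targets, class I genes, and B cell, dendritic cell and Kupffer cell markers. Each dot is 1 gene (red called higher, blue called lower, white not called) and the black bar is the list's median; all 7 class II members are red at both doses, and 9 of 15 class I genes are blue at 30 µg/kg.

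Markers of the cells that make class II changed as well. Over all genes tested, 11.1%, 5.17%, 11.3% and 18.0% were called higher at 1, 3, 10 and 30 µg/kg, and 19.4% lower at 30 µg/kg. The B cell list was called higher in 10 of 10 genes at 30 µg/kg (median log2 1.68; Cr2 3.11, Ms4a1 2.21 and Pax5 1.92), in 5 at 10, in 1 at 3 and in 2 at 1 µg/kg. Its summed level was 22.2 to 34.6 CPM at 30 µg/kg and 17.1 to 24.1 CPM in livers given 10 µg/kg, against 6.64 to 11.6 CPM in vehicle livers. Of 11 dendritic cell markers, 6 rose and 1 fell at 30 µg/kg (Ccl22 3.78, Itgax 2.79, Flt3 2.39 and Clec9a 1.52 higher, and, named after its value was seen, Zbtb46 -0.83 lower), and their summed level was 25.2 to 33.4 CPM against 14.1 to 16.8 CPM in vehicle livers. Pan-leukocyte markers rose in 7 of 8 genes (Ptprc 1.78, Coro1a 1.74, Cd53 1.504 and Arhgdib 1.32, with Rac2 at 0.75 not passing), with sums of 252 to 314 CPM at 30 µg/kg and 142 to 182 CPM in vehicle livers. Without the first vehicle liver 10 of 10 B cell markers and 7 of 8 pan-leukocyte markers were called higher at 30 µg/kg, and 6 of 12 dendritic cell markers higher and 1 lower.

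Kupffer cell markers had 0 genes called higher and 1 of 8 lower by edgeR at 30 µg/kg (Clec4f -0.84; Cd5l -0.01 and Vsig4 -0.32 not passing). Over all genes tested, 18.0% were called higher and 19.4% lower at this dose. For the 8 Kupffer cell markers DESeq2 called 1 higher and 1 lower, and at an unadjusted p below 0.05 1 was higher and 2 were lower. The summed level was 206 to 353 CPM at 30 µg/kg, against 246 to 367 CPM in vehicle livers. Recruited macrophage and monocyte markers rose in 6 of 10 genes (Gpnmb 9.58, Trem2 3.04, Itgam 2.91 and Ccr2 2.70; Lyz2 1.19 and Cd68 0.81 not passing), T cell markers in 2 of 10 (Il7r 3.33 and Cd8a 1.83; Lck 0.46 and Cd4 -0.59 not passing; near the 18.0% of all genes called higher) and cholangiocyte markers in 5 of 6. Hepatocyte markers fell in 6 of 8, with sums of 56860 to 95740 CPM at 30 µg/kg and 117200 to 226100 CPM in vehicle livers. Of the sinusoidal endothelial markers 1 of 7 fell (Lyve1 -0.71), near the 19.4% of all genes called lower. No marker of the B cell, dendritic cell, Kupffer cell or pan-leukocyte lists had a group mean of 0, and the part of these cells in the class II values was not tested.

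At 1 µg/kg the marker lists looked different. Kupffer cell markers were called higher in 7 of 8 genes and pan-leukocyte markers in 7 of 8 at this dose, against 11.1% of all genes. The index set of these livers also differed from that of vehicle. Against 367 and 182 CPM in the highest vehicle liver, the summed markers reached 1536 and 547 CPM in the first 1 µg/kg liver. That liver had 415 CPM of the summed class II members, the lowest of its group. Without it 5 of the 7 class II genes were called at 1 µg/kg, as with it, and 4 Kupffer cell and 5 pan-leukocyte markers.

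Set against the pan-leukocyte markers, the summed class II members had a ratio of 2.98, 2.93 and 2.82 at 10 µg/kg and 2.13, 2.61 and 1.51 at 30 µg/kg, against 2.39, 0.947 and 0.981 in vehicle livers. The livers at 10 µg/kg lay above all vehicle livers, and those at 30 µg/kg lay on both sides of the first vehicle liver and above the remaining vehicle livers. Relative to Kupffer cell markers the ratio was 1.98, 1.60 and 1.83 at 10 µg/kg and 2.99, 1.86 and 2.14 at 30 µg/kg, against 1.19, 0.473 and 0.565 in vehicle livers, with no overlap. Relative to B cell markers it was 19.4, 20.3 and 19.9 at 30 µg/kg and 37.7, 20.3 and 18.2 in vehicle livers, so here the livers at 30 µg/kg lay within the vehicle range. At 10 µg/kg the ratio to B cell markers was 37.9, 36.6 and 34.8, the first just above the vehicle range and the others within it. At 0.1 µg/kg, where 0 members were called, this ratio was 31.3, 35.95 and 41.7. Relative to dendritic cell markers it was 20.02, 25.7 and 17.6 at 30 µg/kg, against 26.0, 9.57 and 9.30 in vehicle livers, so the livers at 30 µg/kg lay below the first vehicle liver and above the remaining vehicle livers. Relative to recruited macrophage and monocyte markers it was 0.843, 2.20 and 0.839 at 30 µg/kg, against 2.74, 1.19 and 1.13 in vehicle livers, so 2 of the 3 livers at 30 µg/kg lay below all vehicle livers.

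**Figure D4:**
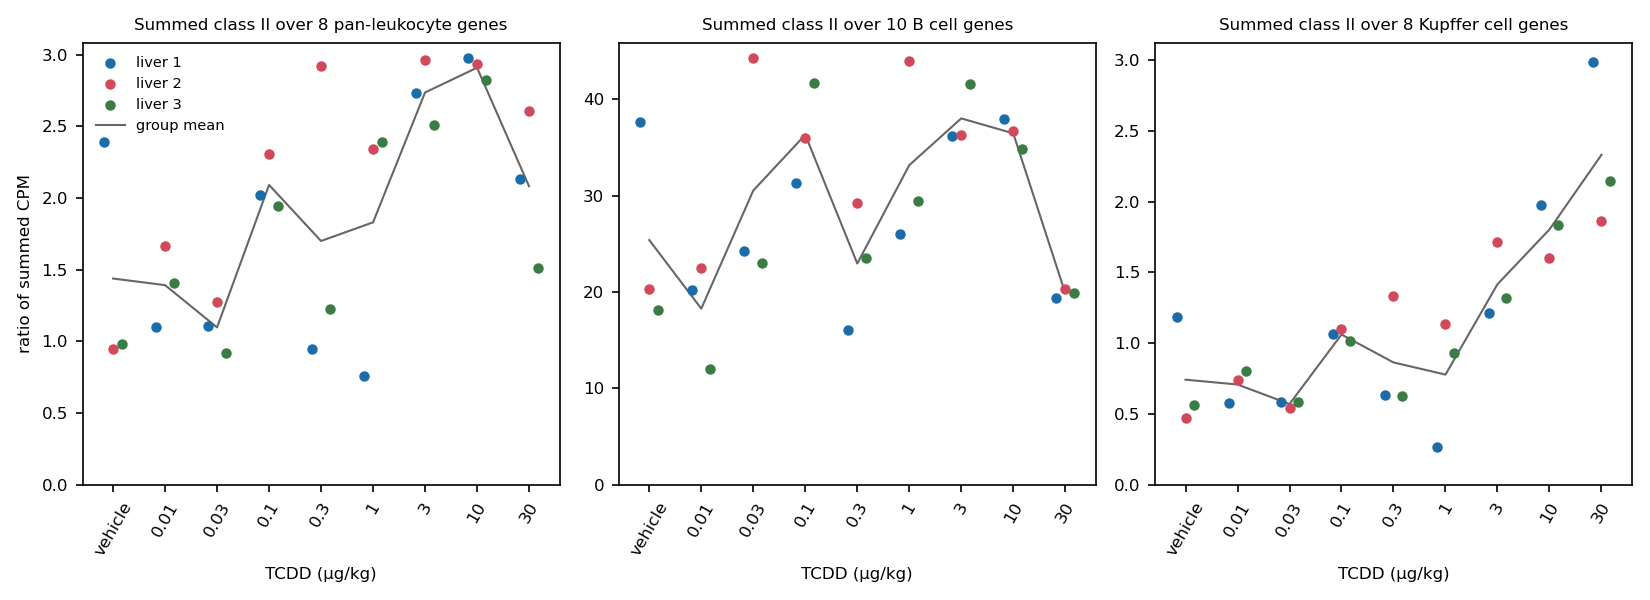
Ratio of the summed CPM of the 7 class II genes to the summed CPM of pan-leukocyte, B cell and Kupffer cell markers in each liver, over vehicle and the 8 doses of TCDD (µg/kg). Each dot is 1 liver and the line joins the group means; the ratio to Kupffer cell markers is higher at 10 and 30 µg/kg than in any vehicle liver, and the ratio to B cell markers at 30 µg/kg, 19.4 to 20.3, lies within the vehicle range of 18.2 to 37.7.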

How the data were processed

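The tables deposited by the authors hold unscaled counts of reads for every gene in each liver. Tools named in the submitters' processing notes are FastQC 0.11.2, cutadapt 1.4.1, TopHat 1.4.1, SAMtools 0.1.19 and HTSeq 0.6.1, with GRCm38 as the build; how strand was set and which annotation was counted is not given in the sources used here. Symbols were matched for 40254 identifiers. The 5 summary lines of each table were kept out (unassigned reads 5.62% to 11.9%, ambiguous reads 1.79% to 3.49%). In R 4.3.3, edgeR 4.0.16 fitted a one-way quasi-likelihood model (robust, TMM factors, filterByExpr with a minimum of 10 counts) to all 27 libraries, and a second model took the dose rank as a number. The standard error is the size of the log2 fold change divided by the root of F. Group values are mean ± SD of CPM. Alternatives were DESeq2 1.42.0, other factors, filters and thresholds, fits of 6 libraries alone, a replicate block and leaving out each library. Fits without the first vehicle, second 0.3 µg/kg or first 1 µg/kg liver for the lists, and the comparison with the vehicle livers numbered 2 and 3 only, were chosen after seeing the data. The test was also run on simulated counts. The members and lists were chosen with earlier results of these data known. The text names the 7 members and every gene of the other class II and promoter factor lists. Of each other list it may name up to 4 called genes with the largest log2 fold change at 30 µg/kg and 2 uncalled ones with the highest CPM, beside the 10 genes most like the members and the 5 most like Ciita; B2m and Zbtb46 fall outside this rule. Some genes that this rule would name are not reported here.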

Additional observations from a re-analysis of the deposited data

How the results depend on the processing

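No called member changed sign under any alternative. Of 1617 results (a member in a comparison under an alternative), 1451 kept their side of the threshold, 134 lost and 32 gained a call. Of 231 counts of called members, 192 stayed within 1.5 times and 39 did not. The trend stayed at 7 in all alternatives. DESeq2 and the non-robust fit each called 5 members at 3 against 0.3 µg/kg. Without a low-count filter 3 were called at 1, 3 at 3 and 1 at 3 against 0.3 µg/kg. In fits of the 2 groups alone the counts were 0 at 1, 1 at 3, 3 at 10 and 2 at 30 µg/kg, 0 at 1 against 0.3 and 6 at 3 against 0.3 µg/kg. At an adjusted p below 0.01 they were 2, 2 and 4 at 1, 3 and 30 µg/kg and 0 for 1 and for 3 against 0.3 µg/kg, and at 0.1 they were 7 for both of these. Leaving out each library gave 0 to 7 at 1 and at 3, 5 to 7 at 10, 3 to 7 at 30, 0 to 5 at 1 against 0.3, 0 to 4 at 3 against 0.3 and 2 to 7 at 10 against 0.3 µg/kg. The cause of these shifts was not tested, except that fits of 2 groups and fits without a library use fewer libraries. The deviations of same-numbered libraries had a median correlation of 0.018 over 108 pairs, 20 of them over 0.1. For libraries with different numbers it was -0.0049 over 216 pairs, 34 of them over 0.1. A pairing of the livers by number was thus not seen, but such correlations cannot exclude a weak one. With the replicate block H2-Ab1 (adjusted p = 0.067) and Cd74 (0.064) at 3 µg/kg lost their call. So did H2-Eb1 at 1 against 0.3 µg/kg (0.053). With 3 livers a group, and 1 vehicle liver about as high in class II as some treated ones, smaller differences at low doses may have been missed. The number of all genes called ranged over the alternatives from 3813 to 6767 at 30, 1883 to 4383 at 10, 824 to 2150 at 3, 1529 to 3991 at 1 and 2 to 1741 at 30 against 10 µg/kg.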
